A study of Homo sapiens with 16 samples.

Results

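The HOX genes are the homeobox genes of the HOXA, HOXB, HOXC and HOXD clusters, and the 49 described here are all the genes of the deposited table whose symbol starts with one of those names followed by a digit or by -AS. They were 49 of 20612 genes in the table: 37 coding genes, 11 antisense transcripts and the readthrough transcript HOXA10-HOXA9. The HOXA cluster held 16 of them, HOXB 11, HOXC 13 and HOXD 9. The RNA came from HCT116, a human colorectal carcinoma cell line, in an isogenic pair with the p53 tumour suppressor gene (p53+/+) or without it (p53-/-). Each line was treated for 8 hours with the solvent DMSO, 5 uM Nutlin-3A, 2.5 uM Entinostat or both drugs together (Combination). Nutlin-3A blocks the p53 antagonist MDM2, and Entinostat inhibits class I histone deacetylases. With 2 replicates in each of 8 groups there were 16 mRNA-seq libraries. The labels do not say whether the replicates were separate cultures or how the p53-/- line was cloned, so p-values measure the spread between these libraries, which may be technical.

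HOX proteins bind DNA through their homeodomain and give segments of the body axis their identity. Within a cluster, genes with low paralogue numbers are active towards the head of the embryo and genes with high numbers towards the tail, so order along the chromosome mirrors position along the body. Polycomb complexes keep silent HOX genes off, trithorax-type complexes with MLL keep active ones on, and adult colon epithelium retains part of the embryonic pattern. Antisense transcripts run between and across the coding genes, and several are known to act on their neighbours.

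The start regions of 5 coding members on which the results below turn are shown, as RefSeq promoter sequence of GRCh38.p14, 250 bases up to the annotated start and 5′ to 3′ on the gene's strand. Capitals mark CG dinucleotides, the sites of DNA methylation. HOXD8 and HOXA4 were higher with Entinostat, HOXA9 and HOXA11 were lower, and HOXA13 was lower with Nutlin-3A where p53 was present. The windows are chr2:176129455-176129704 on the plus strand for HOXD8 and, on the minus strand of chromosome 7, chr7:27130758-27131007 for HOXA4, chr7:27200092-27200341 for HOXA13, chr7:27165538-27165787 for HOXA9 and chr7:27185233-27185482 for HOXA11.
HOXD8: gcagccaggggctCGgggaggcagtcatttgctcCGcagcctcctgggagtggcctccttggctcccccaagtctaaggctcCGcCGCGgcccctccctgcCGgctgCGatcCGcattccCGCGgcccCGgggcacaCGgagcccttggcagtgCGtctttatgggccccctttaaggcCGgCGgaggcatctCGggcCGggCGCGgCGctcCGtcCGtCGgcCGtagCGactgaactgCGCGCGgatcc
HOXA4: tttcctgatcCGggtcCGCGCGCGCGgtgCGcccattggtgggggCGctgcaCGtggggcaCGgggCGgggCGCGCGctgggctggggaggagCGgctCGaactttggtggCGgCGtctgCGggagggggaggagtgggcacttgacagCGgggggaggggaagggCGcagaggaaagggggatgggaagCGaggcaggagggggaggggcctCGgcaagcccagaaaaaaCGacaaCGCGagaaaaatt
HOXA13: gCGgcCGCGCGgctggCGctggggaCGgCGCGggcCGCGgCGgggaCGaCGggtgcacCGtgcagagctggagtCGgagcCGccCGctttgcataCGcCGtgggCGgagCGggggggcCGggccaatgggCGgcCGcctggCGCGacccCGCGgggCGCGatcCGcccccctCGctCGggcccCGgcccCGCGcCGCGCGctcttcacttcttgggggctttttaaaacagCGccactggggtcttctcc
HOXA9: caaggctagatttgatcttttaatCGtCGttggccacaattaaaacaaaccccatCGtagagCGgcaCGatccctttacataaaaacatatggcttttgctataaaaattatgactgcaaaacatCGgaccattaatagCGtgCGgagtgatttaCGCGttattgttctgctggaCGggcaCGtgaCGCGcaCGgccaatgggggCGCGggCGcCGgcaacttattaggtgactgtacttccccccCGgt
HOXA11: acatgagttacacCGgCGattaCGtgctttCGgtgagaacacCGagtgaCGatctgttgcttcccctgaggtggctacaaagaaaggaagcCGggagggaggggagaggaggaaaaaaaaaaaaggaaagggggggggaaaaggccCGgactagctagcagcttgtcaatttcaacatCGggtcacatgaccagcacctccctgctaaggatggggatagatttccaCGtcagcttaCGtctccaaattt
HOXA13 held 40 CG dinucleotides, HOXD8 28, HOXA4 26, HOXA9 20 and HOXA11 11. Over the 32 windows of the 25 members in the RefSeq promoter table the median was 14, against 11 over all 35116 windows of the same length. The letters TATAAA, searched on both strands, stood in 5 member windows (15.6%), HOXA9 and HOXA10 among them, and in 10.7% of all windows. The homeodomain-type motif TGATTNAT, also on both strands, stood in 2 member windows (6.25%, HOXD11 and HOXA2) and in 2.48% of all. These counts describe letters only. No signal at these windows was measured.

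Values are RPKM, read counts divided by gene length and by library depth, so that levels can be compared between genes. Library depth ran from 45902800 to 55507300 alignments. CDKN1A, a direct p53 target, was at 66.1 and 89.3 RPKM with DMSO and 763 and 1059 with Nutlin-3A in p53+/+ cells. Epithelial markers were high (EPCAM 126 to 191 RPKM over the 16 libraries), and the intestinal factor CDX2 was at 3.06 to 7.83, whereas the brush border gene VIL1 stayed at or under 0.0435. Leukocyte markers summed to at most 0.217 RPKM (4 of 4 in the table, CD3E at 0 in 15 libraries) and endothelial markers to at most 0.281 (3 of 3). The 4 fibroblast markers in the table summed to 2.02 to 2.66 RPKM without and 3.66 to 5.81 with Entinostat, almost all of it COL1A1, while COL1A2, COL3A1 and PDGFRA did not exceed 0.0434 in any library. A part of COL1A1-expressing cells in the HOX results was not tested.

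Of the 49 members, 26 were expressed in all 8 groups, taking at least 0.5 RPKM in both replicates as expressed. Another 3 were expressed in some groups, 14 were low (never expressed, but at 0.1 RPKM or more in some library) and 6 were silent (under 0.1 RPKM in all 16 libraries). Over the whole table, 55.1% of genes were expressed in all 8 groups, 7.92% in some, 14.9% were low and 22.1% silent. With 0.1 RPKM as the limit 39 members counted as expressed in at least 1 group, with 0.5 RPKM 29, and with 1 RPKM 27. The clusters differed in how much of them was on. HOXB1 and HOXD1 were not among the 49 members, so the counts below leave them out. In HOXA 10 of 11 coding genes were expressed throughout and in HOXB 8 of 9, the exceptions being HOXA2 and HOXB2, which pattern the hindbrain and its arches. In HOXC 5 of 9 coding genes were, and in HOXD 1 of 8, HOXD8. Position alone did not separate them: the highest-numbered genes HOXA13, HOXB13 and HOXC13 were expressed in every group while HOXD13 was silent.

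**Figure D1:**
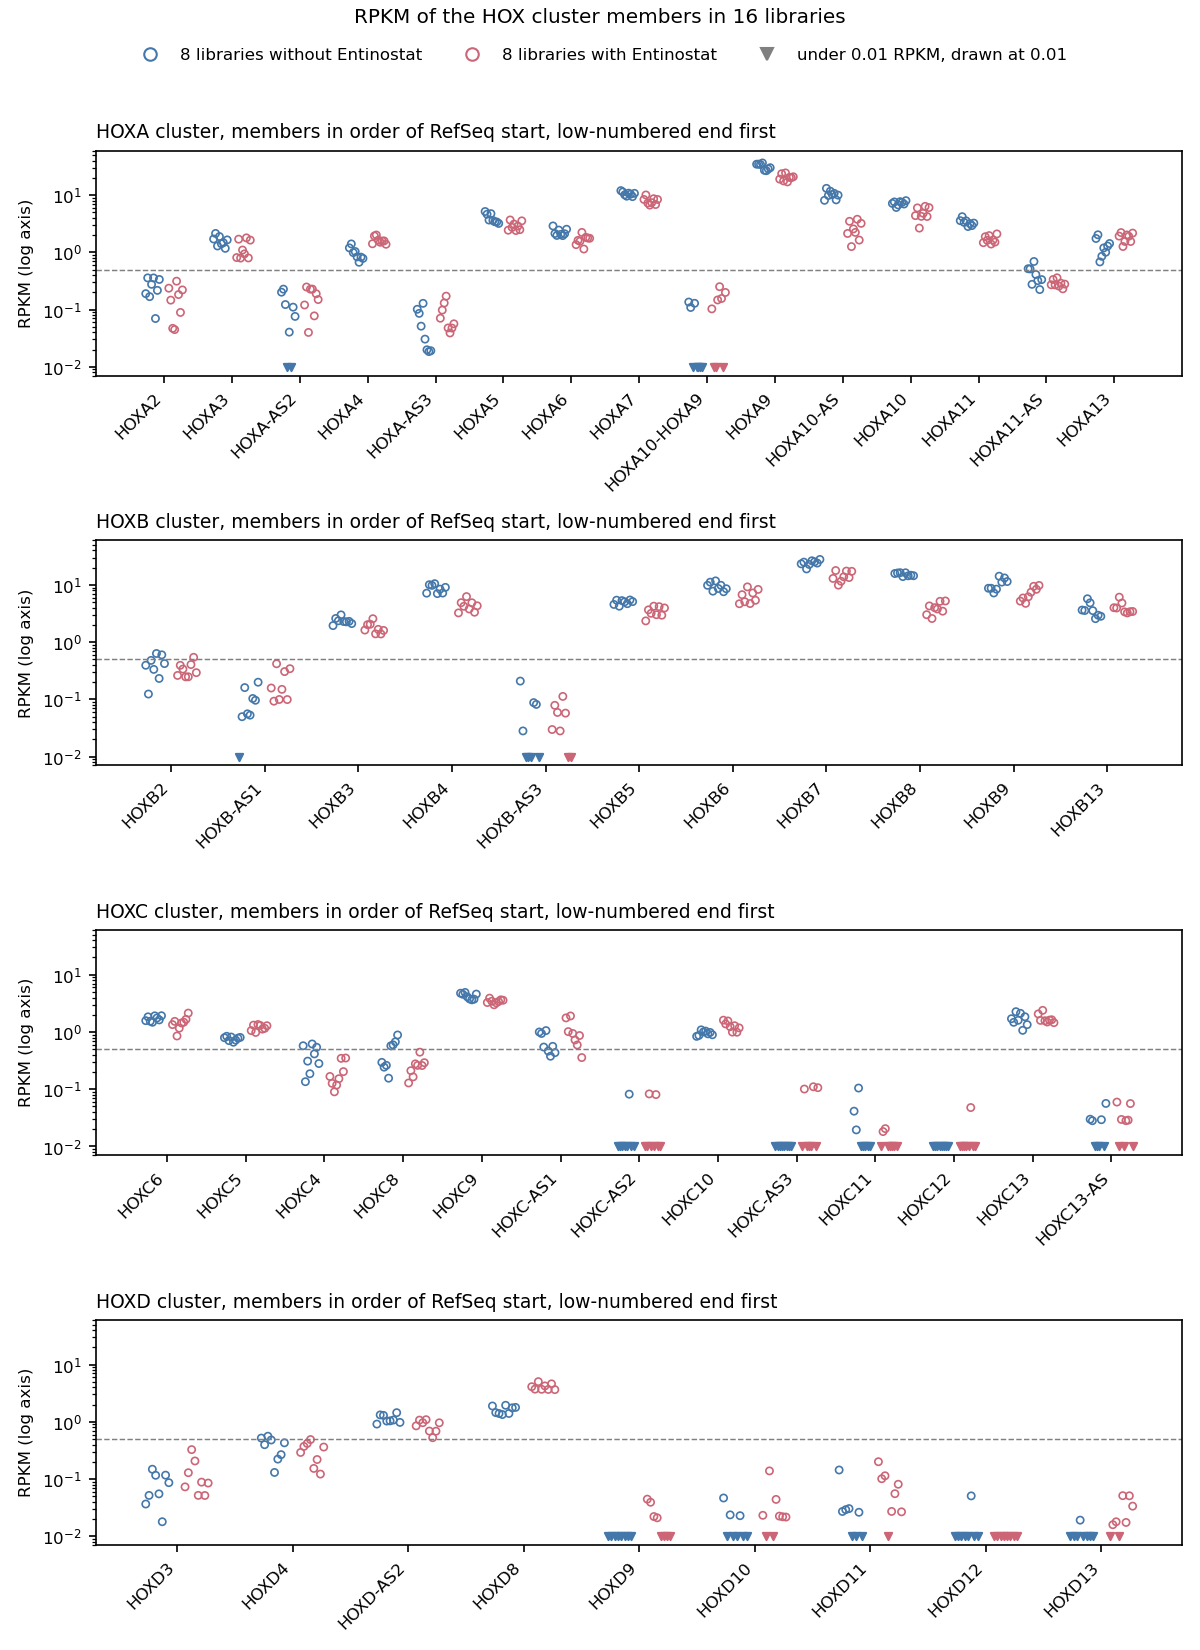
Level of 48 members in each of the 16 libraries, in RPKM on a log axis, with members in order of their RefSeq start within each cluster. Blue circles are the 8 libraries without and red circles the 8 with Entinostat, triangles are values under 0.01 RPKM drawn at 0.01, and the dashed line is 0.5 RPKM; HOXA9 and HOXB7 stand highest, and HOXD9 to HOXD13 lie near 0.

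The most abundant member was HOXA9, a posterior gene known for its part in leukaemia, at 16.97 to 36.3 RPKM over the 16 libraries. HOXB7 followed at 9.90 to 27.8 RPKM, HOXB8 at 2.59 to 16.3 and HOXA7 at 6.67 to 11.9. The next were HOXB9 at 4.76 to 14.2, HOXB6 at 4.68 to 11.8, HOXB4 at 3.24 to 10.5 and the antisense transcript HOXA10-AS at 1.26 to 13.1. The centre of gravity of HOX expression thus lay in paralogue groups 4 to 10 of the HOXA and HOXB clusters. Those 2 clusters carried nearly all of the summed HOX level: 66.3 to 85.4 RPKM for HOXA and 73.1 to 84.1 for HOXB in the 8 libraries without Entinostat, against 9.62 to 11.7 for HOXC and 2.79 to 3.61 for HOXD. In HOXC the highest gene was HOXC9 at 2.98 to 4.90 RPKM, then HOXC13, which controls hair keratins in skin, at 1.07 to 2.39, and HOXC6 at 0.851 to 2.14. In HOXD only HOXD8 (1.34 to 5.03 RPKM) and HOXD-AS2 (0.528 to 1.44 RPKM) were expressed throughout. HOXD4 came next at 0.122 to 0.560 RPKM and reached 0.5 RPKM in single libraries only. HOXD4 in p53+/+ cells was at 0.520 and 0.398 RPKM with DMSO, 0.560 and 0.481 with Nutlin-3A, 0.291 and 0.372 with Entinostat and 0.418 and 0.490 with both drugs. HOXD4 in p53-/- cells was, in the same order, at 0.130 and 0.223, 0.267 and 0.429, 0.153 and 0.219 and 0.122 and 0.362 RPKM.

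The 6 silent members were HOXD9, HOXD12, HOXD13, HOXC12, HOXC-AS2 and HOXC13-AS. Their values came from very few reads. HOXD12 and HOXC12 were each listed above 0 in 1 library, and HOXD9, in whole multiples of its smallest value (within 0.1), added up to 6 such units over all 16 libraries. HOXD9, a posterior limb and body axis gene, was listed at 0 in 12 libraries, and the 4 libraries with a value, 0.021 to 0.0445 RPKM, were the p53+/+ libraries with Entinostat or the Combination. That pattern was picked out after its values were seen, and the level lies below the limit for testing. With no filter on low values limma called HOXD9 in the Entinostat average and between the lines over all treatments, when 45.4% and 34.9% of all genes were called. Those calls rest on the same few reads and add no support. HOXD13, the digit gene, was at 0 in 9 libraries and no higher than 0.0512 RPKM. Among the low members HOXC11 was at 0 in 11 libraries, HOXD10 in 7, HOXD11 in 4 and HOXC-AS3 in 13. The readthrough HOXA10-HOXA9 did not exceed 0.251 RPKM, and its span covers those of HOXA9, HOXA10-AS and HOXA10, so its reads cannot be told apart from theirs in this table.

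3 members crossed 0.5 RPKM in some groups only. HOXC8, a thoracic patterning gene, reached it in p53-/- cells with DMSO (0.572 and 0.596 RPKM) and with Nutlin-3A (0.672 and 0.886). In p53+/+ cells HOXC8 was at 0.294 and 0.243 RPKM with DMSO and 0.261 and 0.156 with Nutlin-3A, and the 8 Entinostat libraries of both lines held 0.128 to 0.444. HOXC8 was thus higher in p53-/- than in p53+/+ libraries without Entinostat, with no overlap, a mark not counted over all genes. Its mean of 0.357 RPKM is below the 0.5 required for a test. With no filter on low values limma called HOXC8 between the lines over all treatments and with Entinostat on average, when 34.9% and 45.4% of all genes were called. Between the lines with DMSO that fit called 0 members and 2.83% of all genes. HOXA11-AS, antisense to the uterine and forearm gene HOXA11, reached 0.5 RPKM in both replicates only of p53+/+ DMSO, and HOXC-AS1 did so in 5 of the 8 groups. Of the 11 antisense transcripts, 2 (HOXA10-AS and HOXD-AS2) were expressed throughout, 2 in some groups, 5 were low and 2 silent. By RefSeq spans 27 members overlap another member, and no source used here states whether the counting used strand, so values of overlapping neighbours such as HOXA10 and HOXA10-AS, HOXC4, HOXC5 and HOXC6, or HOXB3 and HOXB4 may share reads.

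Entinostat lowered most of the expressed HOX genes and raised a few. The summed level of the 49 members was 159 to 182 RPKM in the 8 libraries without and 99.3 to 126 in the 8 with it. The fall came from HOXA (66.3 to 85.4 RPKM without and 42.0 to 59.7 with Entinostat) and HOXB (73.1 to 84.1 and 37.5 to 54.5). The HOXC sums covered about the same range (9.62 to 11.7 and 9.61 to 11.5), and the HOXD sum was higher (2.79 to 3.61 and 4.61 to 7.03) through HOXD8. These sums were not tested. In bulk RNA fewer cells expressing a gene and less RNA per cell cannot be told apart.

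27 members passed the filter of a mean of 0.5 RPKM: 24 coding genes, HOXA10-AS, HOXC-AS1 and HOXD-AS2. Averaged over both lines with and without Nutlin-3A, Entinostat raised 6 of these 27 and lowered 17 (limma, adjusted p under 0.05), when 31.7% of the 12466 genes tested were higher and 30.1% lower. The share of members that fell was 63% and the share that rose 22.2%. Their median change was -0.33 on the log2(RPKM + 0.5) scale, against 0.0064 for all genes. The 4 contrasts behind the average use separate libraries: 17 members were lower and 8 higher in all 4, where 34.4% of all genes were lower and 34.8% higher in all 4. Among all genes 8.7% had the 8 Entinostat libraries all above the 8 others, and 6.94% all below. HOXC5 and HOXD8 were among the members above, and HOXA9, HOXA10-AS, HOXA11, HOXB4, HOXB7 and HOXB8 below.

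By cluster, 3 of 11 tested HOXA members rose and 7 fell, 7 of 8 HOXB members fell, the other being HOXB13, 2 of 6 HOXC members rose and 2 fell, and 1 of 2 in HOXD rose and 1 fell. The median log2 change was -0.39 in HOXA, -0.53 in HOXB, 0.16 in HOXC and 0.42 in HOXD. By position the medians lay closer together, at -0.33 for the 3 anterior genes (paralogue groups 1 to 3), -0.39 for the 12 central genes (4 to 8) and -0.27 for the 9 posterior genes (9 to 13). Counts this small describe these members only. No difference between clusters or positions was tested.

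**Figure D2:**
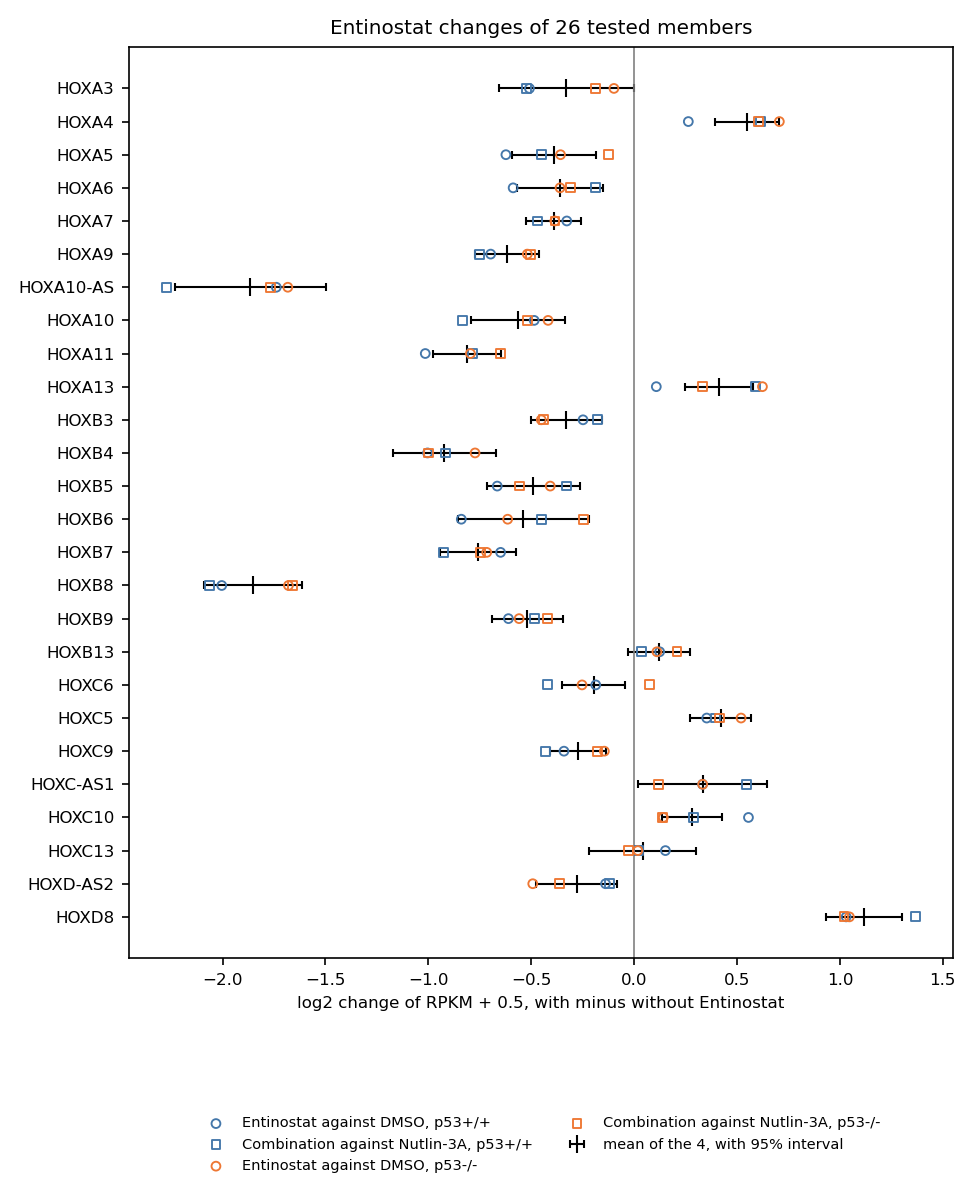
Change of 26 tested members with Entinostat, as the difference in log2(RPKM + 0.5), for the 4 separate contrasts (circles against DMSO, squares against Nutlin-3A, blue p53+/+, orange p53-/-). The bar is the mean of the 4 with its 95% interval; HOXD8 lies above 1, and HOXA10-AS and HOXB8 below -1.5.

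HOXB8 and HOXA10-AS fell furthest. HOXB8 in p53+/+ cells was at 15.8 and 16.1 RPKM with DMSO, 16.3 and 13.96 with Nutlin-3A, 3.02 and 4.29 with Entinostat and 2.59 and 4.002 with both drugs. HOXB8 in p53-/- cells was, in the same order, at 16.3 and 14.4, 14.7 and 14.4, 3.79 and 5.17 and 3.47 and 5.24 RPKM. The Entinostat libraries lay between 2.59 and 5.24 RPKM and the others between 13.96 and 16.3. HOXB8, a central gene studied for its role in grooming behaviour of mice, was 3.87-fold lower with Entinostat on average (log2 change -1.85, SE 0.11, adjusted p = 3.8e-07 by limma). HOXA10-AS in p53+/+ cells was at 8.09 and 13.1 RPKM with DMSO, 9.81 and 11.7 with Nutlin-3A, 2.13 and 3.48 with Entinostat and 1.26 and 2.56 with both drugs. HOXA10-AS in p53-/- cells was, in the same order, at 10.2 and 10.7, 8.24 and 9.96, 2.23 and 3.78 and 1.64 and 3.20 RPKM. This antisense transcript of the HOXA10 region was 4.04-fold lower with Entinostat (-1.87, SE 0.17, adjusted p = 3.3e-06 by limma), with all 8 Entinostat libraries below all others. Its overlapping partner HOXA10, a gene of uterine and limb development, fell less, by 0.56 (SE 0.11, adjusted p = 0.00059 by limma). HOXA10 in p53+/+ cells was at 7.14 and 7.58 RPKM with DMSO, 6.07 and 6.72 with Nutlin-3A, 4.37 and 5.96 with Entinostat and 2.65 and 4.24 with both drugs. HOXA10 in p53-/- cells was, in the same order, at 7.66 and 7.44, 6.97 and 7.98, 4.79 and 6.35 and 4.22 and 6.04 RPKM. The HOXA10 libraries with and without Entinostat overlapped, and HOXA10 was called in 1 of the 4 separate contrasts.

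Further falls ran along the posterior and central HOXA genes. HOXA9 in p53+/+ cells was at 34.6 and 34.7 RPKM with DMSO, 34.2 and 36.3 with Nutlin-3A, 18.97 and 23.6 with Entinostat and 17.6 and 24.4 with both drugs. HOXA9 in p53-/- cells was, in the same order, at 27.1 and 26.6, 28.5 and 30.02, 16.97 and 20.3 and 20.1 and 20.9 RPKM. HOXA9 was 1.55-fold lower with Entinostat (log2 change -0.62, SE 0.07, adjusted p = 1.5e-05 by limma), and no library with the drug reached one without it. HOXA11 in p53+/+ cells was at 3.57 and 4.19 RPKM with DMSO, 3.33 and 3.54 with Nutlin-3A, 1.47 and 1.87 with Entinostat and 1.62 and 1.96 with both drugs. HOXA11 in p53-/- cells was, in the same order, at 2.82 and 3.17, 2.93 and 3.24, 1.39 and 1.64 and 1.51 and 2.10 RPKM. HOXA11 was 1.98-fold lower (-0.81, SE 0.076, adjusted p = 3.9e-06 by limma), again with no overlap. HOXA7 in p53+/+ cells was at 11.9 and 11.3 RPKM with DMSO, 10.1 and 9.55 with Nutlin-3A, 8.37 and 10.04 with Entinostat and 7.25 and 6.67 with both drugs. HOXA7 in p53-/- cells was, in the same order, at 10.8 and 10.3, 9.38 and 10.7, 7.36 and 8.62 and 6.83 and 8.37 RPKM. HOXA7, from the middle of the cluster, fell by 0.39 (SE 0.061, adjusted p = 0.00016 by limma). In p53-/- cells libraries with and without the drug did not overlap, and in p53+/+ cells 1 Entinostat library at 10.0 RPKM exceeded 1 Nutlin-3A library at 9.55. Overlap within a single line was not counted over all genes.

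HOXA5 and HOXA6, next to HOXA7, fell on average too, each called in 1 of the 4 separate contrasts. HOXA5 in p53+/+ cells was at 5.16 and 4.62 RPKM with DMSO, 3.66 and 4.73 with Nutlin-3A, 2.43 and 3.67 with Entinostat and 2.72 and 3.11 with both drugs. HOXA5 in p53-/- cells was, in the same order, at 3.60 and 3.41, 3.39 and 3.19, 2.40 and 2.87 and 2.48 and 3.54 RPKM. HOXA5, a lung and body axis gene, fell by 0.39 (SE 0.093, adjusted p = 0.0031 by limma). HOXA6 in p53+/+ cells was at 2.89 and 2.13 RPKM with DMSO, 1.97 and 2.44 with Nutlin-3A, 1.36 and 1.62 with Entinostat and 1.56 and 2.23 with both drugs. HOXA6 in p53-/- cells was, in the same order, at 2.05 and 1.96, 2.11 and 2.53, 1.14 and 1.82 and 1.77 and 1.76 RPKM. HOXA6 fell by 0.36 (SE 0.096, adjusted p = 0.0061 by limma), and for both genes libraries with and without the drug overlapped. HOXA3, a thymus and parathyroid gene, had a change of -0.33 that did not pass (adjusted p = 0.075 by limma); it passed with the replicate number as a block. 

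In the HOXB cluster the fall in the average covered every tested gene from HOXB3 to HOXB9. HOXB4 in p53+/+ cells was at 7.17 and 10.1 RPKM with DMSO, 9.80 and 10.5 with Nutlin-3A, 3.24 and 4.88 with Entinostat and 4.23 and 6.24 with both drugs. HOXB4 in p53-/- cells was, in the same order, at 7.04 and 8.43, 7.20 and 9.05, 3.79 and 4.87 and 3.33 and 4.31 RPKM. HOXB4, known for expanding blood stem cells, was 1.98-fold lower with Entinostat (log2 change -0.92, SE 0.11, adjusted p = 2.8e-05 by limma). HOXB7 in p53+/+ cells was at 23.3 and 24.96 RPKM with DMSO, 19.00 and 22.7 with Nutlin-3A, 12.96 and 17.8 with Entinostat and 9.90 and 11.6 with both drugs. HOXB7 in p53-/- cells was, in the same order, at 26.4 and 25.3, 24.03 and 27.8, 13.8 and 17.4 and 13.4 and 17.2 RPKM. HOXB7 was 1.69-fold lower (-0.76, SE 0.085, adjusted p = 1.3e-05 by limma), and for HOXB4 as for HOXB7 all Entinostat libraries lay below all others. HOXB9 in p53+/+ cells was at 8.73 and 8.73 RPKM with DMSO, 7.22 and 8.42 with Nutlin-3A, 5.21 and 5.90 with Entinostat and 4.76 and 6.20 with both drugs. HOXB9 in p53-/- cells was, in the same order, at 14.2 and 11.2, 13.2 and 11.4, 7.45 and 9.44 and 8.36 and 9.78 RPKM. HOXB9 fell by 0.52 (SE 0.08, adjusted p = 0.00014 by limma). Within each line the Entinostat libraries lay below the others, a mark not counted over all genes, and across the lines they overlapped.

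HOXB3, HOXB5 and HOXB6 fell on average as well. Of the 4 separate contrasts HOXB3 and HOXB5 were called in 1 each and HOXB6 in 0. HOXB3 in p53+/+ cells was at 1.94 and 2.59 RPKM with DMSO, 2.36 and 2.99 with Nutlin-3A, 1.62 and 2.02 with Entinostat and 2.05 and 2.56 with both drugs. HOXB3 in p53-/- cells was, in the same order, at 2.29 and 2.26, 2.31 and 2.11, 1.40 and 1.67 and 1.39 and 1.60 RPKM. HOXB3 fell by 0.33 (SE 0.079, adjusted p = 0.0031 by limma). HOXB5 in p53+/+ cells was at 4.55 and 5.41 RPKM with DMSO, 4.24 and 5.31 with Nutlin-3A, 2.35 and 3.66 with Entinostat and 3.19 and 4.25 with both drugs. HOXB5 in p53-/- cells was, in the same order, at 5.06 and 4.69, 5.45 and 5.11, 3.01 and 4.17 and 2.95 and 3.95 RPKM. HOXB5 fell by 0.49 (SE 0.10, adjusted p = 0.0014 by limma). HOXB6 in p53+/+ cells was at 9.82 and 11.2 RPKM with DMSO, 7.77 and 11.8 with Nutlin-3A, 4.68 and 6.74 with Entinostat and 5.08 and 9.23 with both drugs. HOXB6 in p53-/- cells was, in the same order, at 8.64 and 9.83, 7.59 and 8.56, 4.72 and 7.22 and 5.38 and 8.34 RPKM. HOXB6 fell by 0.54 (SE 0.15, adjusted p = 0.0069 by limma), and in all 3 genes libraries with and without Entinostat overlapped.

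Against this fall, HOXD8 rose strongly. HOXD8 in p53+/+ cells was at 1.89 and 1.45 RPKM with DMSO, 1.40 and 1.34 with Nutlin-3A, 4.10 and 3.72 with Entinostat and 5.03 and 3.69 with both drugs. HOXD8 in p53-/- cells was, in the same order, at 1.94 and 1.40, 1.75 and 1.78, 4.23 and 3.68 and 4.60 and 3.65 RPKM. HOXD8, the only coding HOXD gene expressed throughout, was 2.53-fold higher (1.12, SE 0.085, adjusted p = 1.1e-06 by limma). For HOXD8 the Entinostat libraries of both lines lay above every library without it, and HOXD8 sits between the silent HOXD9 and the low HOXD4 in the order of coding genes.

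HOXA4 in p53+/+ cells was at 1.19 and 1.40 RPKM with DMSO, 0.988 and 1.03 with Nutlin-3A, 1.41 and 1.93 with Entinostat and 2.00 and 1.63 with both drugs. HOXA4 in p53-/- cells was, in the same order, at 0.831 and 0.669, 0.823 and 0.782, 1.495 and 1.57 and 1.58 and 1.38 RPKM. HOXA4, whose neighbour HOXA5 fell, rose by 0.55 (SE 0.071, adjusted p = 4.2e-05 by limma). Its change was 0.26 in p53+/+ cells against DMSO, which did not pass (adjusted p = 0.19 by limma), and 0.71 in p53-/- cells, which did. HOXC5 in p53+/+ cells was at 0.794 and 0.840 RPKM with DMSO, 0.706 and 0.816 with Nutlin-3A, 1.06 and 1.32 with Entinostat and 0.982 and 1.35 with both drugs. HOXC5 in p53-/- cells was, in the same order, at 0.662 and 0.721, 0.780 and 0.803, 1.30 and 1.12 and 1.16 and 1.29 RPKM. HOXC5 rose by 0.42 (SE 0.068, adjusted p = 0.00022 by limma), with all 8 Entinostat libraries above the others, though its span overlaps those of HOXC4 and HOXC6. HOXC10 in p53+/+ cells was at 0.838 and 0.871 RPKM with DMSO, 1.09 and 1.00 with Nutlin-3A, 1.61 and 1.38 with Entinostat and 1.55 and 1.24 with both drugs. HOXC10 in p53-/- cells was, in the same order, at 1.03 and 0.927, 0.981 and 0.893, 0.994 and 1.28 and 0.989 and 1.18 RPKM. HOXC10, a hindlimb and lumbar motor neuron gene, rose by 0.28 (SE 0.068, adjusted p = 0.0033 by limma), and its change was 0.56 in p53+/+ and 0.14 in p53-/- cells against DMSO. HOXC10 was called in 1 of the 4 contrasts. HOXA13 also rose on average, by 0.41 (SE 0.075, adjusted p = 0.00048 by limma), with overlapping libraries. It was called in 2 of the 4 contrasts. In p53+/+ cells it was not called against DMSO (mean 1.88 to 2.07 RPKM) but was against Nutlin-3A (0.765 to 1.40).

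2 HOXC genes fell on average, each called in 1 of the 4 separate contrasts. HOXC6 was higher in 1 of the 4. HOXC9 in p53+/+ cells was at 4.75 and 4.56 RPKM with DMSO, 4.90 and 4.11 with Nutlin-3A, 3.27 and 3.90 with Entinostat and 3.44 and 2.98 with both drugs. HOXC9 in p53-/- cells was, in the same order, at 3.78 and 3.64, 3.74 and 4.59, 3.22 and 3.40 and 3.64 and 3.58 RPKM. HOXC9, a thoracic gene, fell by 0.27 (SE 0.062, adjusted p = 0.0023 by limma). HOXC6 in p53+/+ cells was at 1.58 and 1.84 RPKM with DMSO, 1.54 and 1.48 with Nutlin-3A, 1.34 and 1.53 with Entinostat and 0.851 and 1.17 with both drugs. HOXC6 in p53-/- cells was, in the same order, at 1.91 and 1.76, 1.62 and 1.92, 1.44 and 1.48 and 1.66 and 2.14 RPKM. HOXC6 fell by 0.20 (SE 0.071, adjusted p = 0.029 by limma), but the call was lost when any 1 of 8 single libraries was left out: p53+/+ DMSO replicate 2, p53+/+ Nutlin-3A, Entinostat or Combination replicate 1, p53-/- DMSO, Entinostat or Combination replicate 1, or p53-/- Nutlin-3A replicate 2. HOXD-AS2 in p53+/+ cells was at 0.913 and 1.32 RPKM with DMSO, 1.29 and 1.03 with Nutlin-3A, 0.849 and 1.07 with Entinostat and 0.965 and 1.09 with both drugs. HOXD-AS2 in p53-/- cells was, in the same order, at 1.04 and 1.07, 1.44 and 0.976, 0.689 and 0.528 and 0.686 and 0.961 RPKM. HOXD-AS2, the antisense neighbour of HOXD8, fell by 0.28 (SE 0.09, adjusted p = 0.017 by limma), opposite to HOXD8. It was called in 0 of the 4 separate contrasts. HOXC13 (0.04, adjusted p = 0.78 by limma), HOXB13 (0.12, adjusted p = 0.15) and HOXC-AS1 (0.33, adjusted p = 0.062) did not pass; HOXC-AS1 passed with the replicate number as a block. HOXC13 in p53+/+ cells was at 1.70 and 1.47 RPKM with DMSO, 2.26 and 1.60 with Nutlin-3A, 2.07 and 1.59 with Entinostat and 2.39 and 1.57 with both drugs. HOXC13 in p53-/- cells was, in the same order, at 2.12 and 1.07, 1.84 and 1.34, 1.49 and 1.61 and 1.63 and 1.45 RPKM. Its 2 p53-/- DMSO replicates spanned most of the range seen in all 16 libraries.

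**Figure D3:**
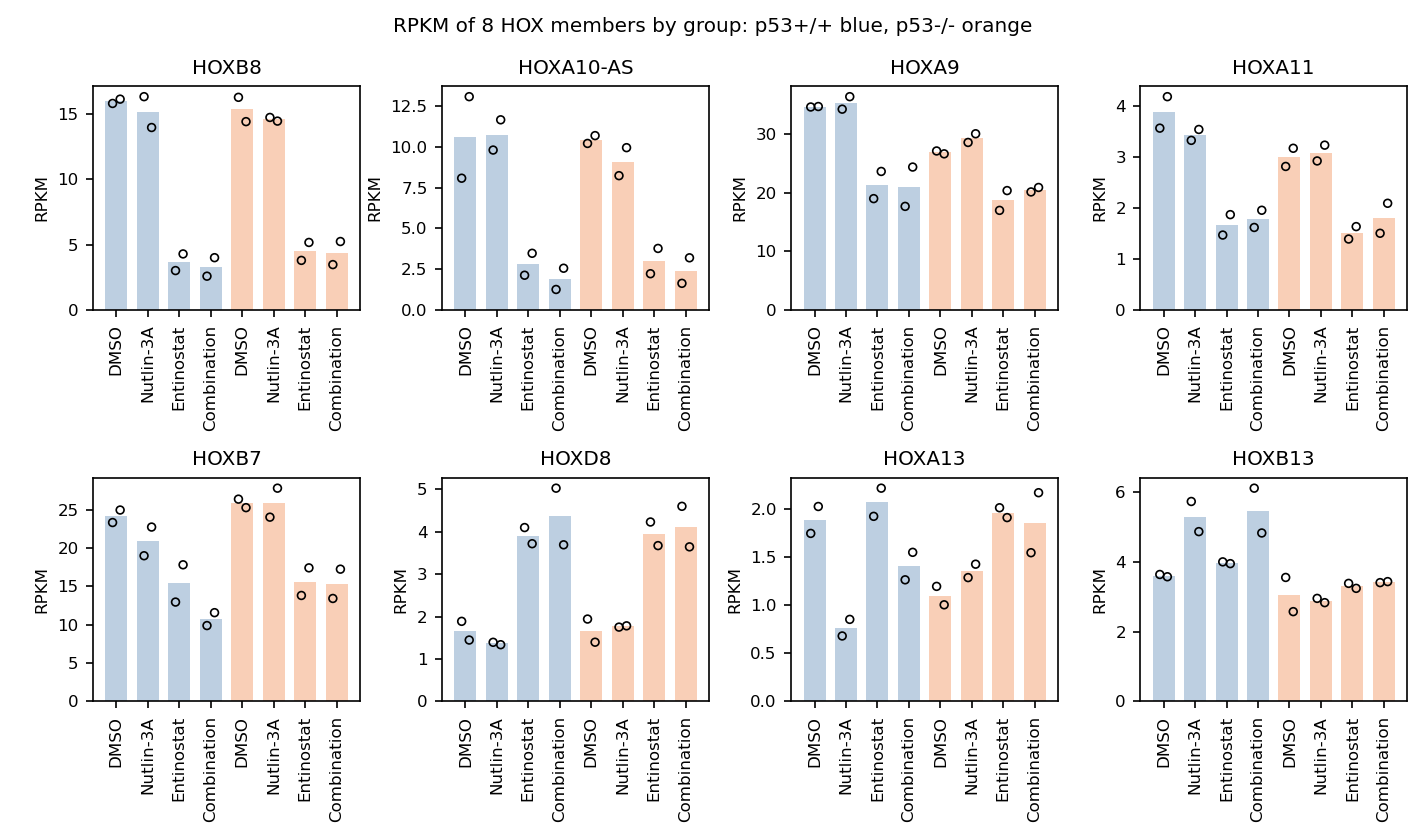
RPKM of 8 members in the 8 groups; circles are the 2 replicates, bars their mean, blue p53+/+ and orange p53-/-. HOXB8, HOXA10-AS, HOXA9, HOXA11 and HOXB7 are lower and HOXD8 higher in all Entinostat and Combination groups, while HOXA13 is lowest in p53+/+ cells with Nutlin-3A, at 0.679 and 0.851 RPKM.

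Taken one at a time, the Entinostat contrasts each rest on 4 libraries. Against DMSO in p53+/+ cells 3 of 27 rose, HOXC10 and HOXD8 among them, and 10 fell, with 15.1% of all genes higher and 12.4% lower. In p53-/- cells 5 rose, among them HOXA4, HOXA13, HOXC5 and HOXD8, and 9 fell, with 15% and 13.3% of all genes. When Entinostat was added to Nutlin-3A in p53+/+ cells 5 members rose and 11 fell (16.6% and 18.1% of all genes), and in p53-/- cells 4 rose and 7 fell (13.6% and 9.75% of all genes). With median-of-ratios scaling the p53-/- split was 3 and 9. 8 members, among them HOXA9, HOXA10-AS, HOXA11, HOXB4, HOXB7, HOXB8 and HOXD8, were called in all 4 contrasts, 29.6% of the members tested, and 14.4% of all genes were.

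Single libraries weighed on these counts. Each fit below that gave fewer member calls also called fewer of all genes. In p53+/+ cells 13 members called became 7 without DMSO replicate 1, 6 without DMSO replicate 2 and 4 without Entinostat replicate 1. In p53-/- cells 14 became 7, 8 and 5 without the same libraries. For Entinostat added to Nutlin-3A, 16 in p53+/+ cells became 10 without Nutlin-3A replicate 1, and 11 in p53-/- cells became 7 without Nutlin-3A replicate 1, 4 without Nutlin-3A replicate 2 and 3 without Combination replicate 1. The averaged count of 23 stayed between 22 and 25 when each of the 16 libraries was left out in turn. The replicates differed in size of response: over the 4 same-numbered contrasts the median change of the 27 members was -0.47 in replicate 1 and -0.23 in replicate 2, and 21 of 27 members, like 9243 of 12466 genes, had the larger change in replicate 1. 14 members were lower in 8 of 8 same-numbered pairs, 51.9% against 24.7% of all genes, and 5 were higher in 8 of 8, 18.5% against 26.1%.

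No member's response to Entinostat was called different between the lines. The test of the difference called 0 members higher and 0 lower with limma, as for all genes (0% and 0%), and 2 members had an unadjusted p under 0.05, as did 164 of 12466 genes. These were HOXA13, with a change larger by 0.52 in p53-/- cells (95% interval 0.05 to 0.98, adjusted p = 1 by limma), and HOXA4, larger by 0.44 (0.0025 to 0.88, adjusted p = 1).

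**Figure D4:**
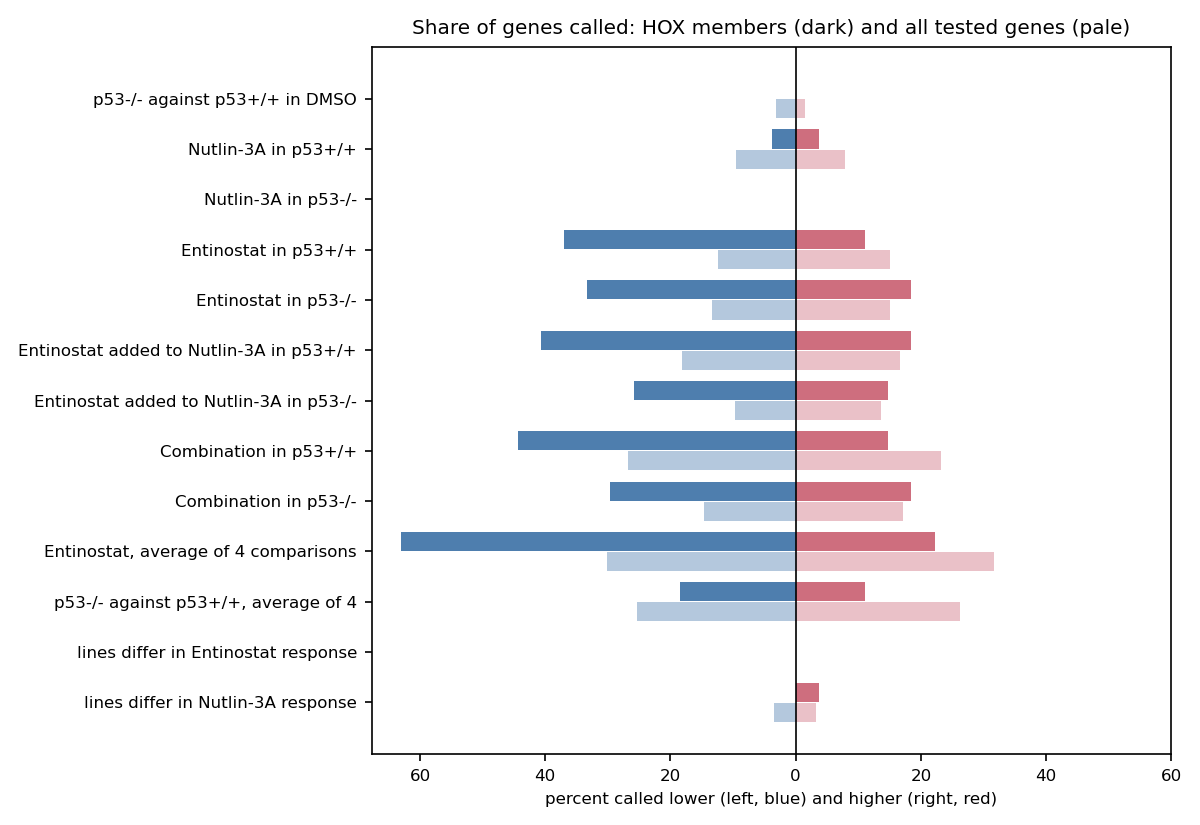
Percent of the 27 tested HOX members (dark) and of all 12466 tested genes (pale) called higher (red, right) or lower (blue, left) in each comparison at an adjusted p under 0.05 by limma. Members called lower exceed the pale bars in the Entinostat and Combination comparisons, reaching 63% in the average of the 4 Entinostat contrasts, and fall short of them for Nutlin-3A in p53+/+ cells and for both genotype comparisons.

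Nutlin-3A alone moved 2 members, both from the posterior end and in opposite directions. In p53+/+ cells 1 of 27 rose, HOXB13, and 1 fell, HOXA13, with 7.89% of all genes higher and 9.5% lower and 3.7% of members each way. HOXA13 in p53+/+ cells was at 1.74 and 2.02 RPKM with DMSO, 0.679 and 0.851 with Nutlin-3A, 1.92 and 2.21 with Entinostat and 1.26 and 1.55 with both drugs. HOXA13 in p53-/- cells was, in the same order, at 1.19 and 1.00, 1.28 and 1.42, 2.01 and 1.91 and 1.54 and 2.16 RPKM. HOXA13, a gene of the hindgut, urogenital tract and digits, was 2.46-fold lower with Nutlin-3A in p53+/+ cells (log2 change -0.91, SE 0.15, adjusted p = 0.0013 by limma). Its DMSO and Nutlin-3A replicates did not overlap, a mark not counted over all genes. In p53-/- cells its change was 0.22 (95% interval -0.11 to 0.54, adjusted p = 0.96 by limma). The difference between the lines was 1.13 (SE 0.21, 95% interval 0.67 to 1.59, adjusted p = 0.0074 by limma). HOXA13 was the 1 member called in that test and 0 were called lower, with 3.29% and 3.49% of all genes. Blocking on the replicate number added HOXB13, for 2 in all, when 17.1% of all genes were called.

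HOXB13 in p53+/+ cells was at 3.63 and 3.57 RPKM with DMSO, 5.72 and 4.86 with Nutlin-3A, 3.99 and 3.94 with Entinostat and 6.10 and 4.82 with both drugs. HOXB13 in p53-/- cells was, in the same order, at 3.55 and 2.57, 2.95 and 2.83, 3.38 and 3.24 and 3.40 and 3.43 RPKM. HOXB13, a prostate and hindgut gene that partners the androgen receptor, was 1.47-fold higher with Nutlin-3A in p53+/+ cells (log2 change 0.49, SE 0.14, adjusted p = 0.029 by limma). That call was lost, leaving HOXA13 alone, on omitting either DMSO library or the first Nutlin-3A replicate of the p53+/+ line. In p53-/- cells the HOXB13 change was -0.06 (adjusted p = 0.97 by limma), and the difference between the lines of -0.55 did not pass (adjusted p = 0.13; passed with the block). Nutlin-3A in p53-/- cells called 0 members and 0% of genes in either direction with limma. An unadjusted p under 0.05 was reached by 0 members and by 440 of 12466 genes.

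With both drugs, against DMSO, 4 members rose and 12 fell in p53+/+ cells (23.2% and 26.8% of all genes), and 5 rose and 8 fell in p53-/- cells (17.1% and 14.7%). These contrasts share the DMSO libraries with those of the single drugs. In p53+/+ cells the largest falls were those of HOXA10-AS, 5.55-fold lower (adjusted p = 0.00033 by limma), HOXB8, 4.85-fold lower (adjusted p = 3.7e-05), and HOXB7, 2.25-fold lower (adjusted p = 0.00029). HOXD8 was 2.61-fold higher. HOXB13 rose here as well, 1.52-fold (adjusted p = 0.0078 by limma). HOXA13, at 1.26 and 1.55 RPKM with both drugs, lay between its Nutlin-3A and its DMSO values, and its change against DMSO of -0.32 did not pass (adjusted p = 0.091 by limma). A replicate block added it to the calls, together with HOXA3, HOXA4, HOXB5, HOXB6 and HOXC5, when 64% of all genes were called. In p53-/- cells the 13 calls became 8 without DMSO replicate 2 and 5 without Combination replicate 1.

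What Nutlin-3A added to Entinostat in p53+/+ cells was examined after the values of HOXA13 and HOXB13 had been seen. limma called 0 members higher and 0 lower, with 5.16% and 9.69% of all genes. An unadjusted p under 0.05 was reached by 6 of the 27 members and by 3710 of 12466 genes. HOXA13 was 1.47-fold lower with both drugs than with Entinostat (-0.43, 95% interval -0.76 to -0.10, adjusted p = 0.075 by limma) and HOXB13 1.38-fold higher (0.41, 0.10 to 0.71, adjusted p = 0.07). In each case the replicates did not overlap, and the share of all genes without overlap was not counted. Blocking on the replicate number gave 8 called members, HOXA13 and HOXB13 among them, when 31.3% of all genes were called. The count was 1 without Entinostat replicate 1 and 3 without Combination replicate 2.

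Without drug no member passed the test between the lines in the main fit. With DMSO, limma called 0 members higher and 0 lower in p53-/- than in p53+/+ cells, when 1.56% of all genes were higher and 3.13% lower. An unadjusted p under 0.05 was reached by 7 of the 27 members and by 2050 of 12466 genes. Blocking on the replicate number, limma called 5, when 13.1% of all genes were called: HOXA4, HOXA9, HOXA11 and HOXA13 lower and HOXB9 higher. With a pseudocount of 0.1, or with no intensity trend, limma called HOXA4 and HOXA13, when 5.06% and 4.91% of all genes were called. In the main fit HOXA13 was 1.71-fold lower in p53-/- cells (log2 change -0.58, 95% interval -0.90 to -0.25), just short of the threshold (adjusted p = 0.05 after rounding by limma), and HOXA4 was 1.73-fold lower (-0.52, -0.84 to -0.21, adjusted p = 0.06 by limma). HOXB9 was 1.45-fold higher (0.50, 0.16 to 0.85, adjusted p = 0.11 by limma). For each of these 3 genes the 2 replicates of one line did not overlap those of the other. With 2 libraries a side that is a weak mark, and its share over all genes was not counted.

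Averaged over the 4 treatments 3 members were higher in p53-/- cells and 5 lower, with 26.3% of all genes higher and 25.3% lower and 11.1% and 18.5% of the members. HOXB9 stood 1.54-fold higher (log2 difference 0.59, SE 0.08, adjusted p = 8.2e-05 by limma). Within each of the 4 treatments both p53-/- replicates of HOXB9 exceeded both p53+/+ replicates, a mark not counted over all genes. HOXB7 (0.23, adjusted p = 0.038 by limma) and HOXC6 (0.24, adjusted p = 0.015) were also higher, but not alike in each treatment. With both drugs HOXB7 averaged 10.7 RPKM in p53+/+ and 15.3 in p53-/- cells, and HOXC6 1.01 and 1.90. With Entinostat alone HOXB7 averaged 15.4 and 15.6 RPKM, and HOXC6 1.44 and 1.46. HOXB13 was 1.45-fold lower in p53-/- cells (-0.45, SE 0.07, adjusted p = 0.00021 by limma). All 8 p53-/- libraries (2.57 to 3.55 RPKM) lay below all 8 p53+/+ libraries (3.57 to 6.10 RPKM), by a narrow gap. How many of all genes separate so was not counted. Part of the HOXB13 average is its response to Nutlin-3A in p53+/+ cells. HOXC-AS1 in p53+/+ cells was at 0.999 and 0.941 RPKM with DMSO, 0.545 and 1.06 with Nutlin-3A, 1.76 and 1.01 with Entinostat and 1.90 and 0.941 with both drugs. HOXC-AS1 in p53-/- cells was, in the same order, at 0.463 and 0.377, 0.561 and 0.435, 0.725 and 0.593 and 0.866 and 0.357 RPKM. The antisense transcript HOXC-AS1 was 2.09-fold lower (-0.62, SE 0.14, adjusted p = 0.0034 by limma). HOXA4 (-0.26, adjusted p = 0.0091 by limma), HOXA9 (-0.21, adjusted p = 0.027) and HOXB3 (-0.22, adjusted p = 0.032) were lower too. With DMSO, however, HOXB3 averaged 2.27 RPKM in both lines. The 8 calls became 5 without p53-/- DMSO replicate 2. The HOXA9 call was lost without p53+/+ DMSO replicate 1, Nutlin-3A replicate 2 or Entinostat replicate 2, or p53-/- DMSO replicate 2 or Nutlin-3A, Entinostat or Combination replicate 1. The HOXB3 call was lost without p53+/+ replicate 2 of any treatment, p53-/- DMSO replicate 1 or 2, Nutlin-3A replicate 2, or Entinostat or Combination replicate 1. The HOXB7 call was lost without p53+/+ replicate 1 of any treatment, p53-/- replicate 2 of any treatment, or DMSO replicate 2 of p53+/+ or replicate 1 of p53-/-.

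The genes that work with or on the HOX clusters were taken from lists. Of all tested genes, 31.7% rose and 30.1% fell with Entinostat on average, and 7.89% rose and 9.5% fell with Nutlin-3A in p53+/+ cells. No list was tested against these shares. Of 6 tested HOX cofactors, the PBX and MEIS type proteins that share DNA sites with HOX proteins, 2 rose with Entinostat on average and 1 fell (median log2 change 0.08). PBX3 rose by a factor of 1.56 (adjusted p = 4.4e-06 by limma) and MEIS3 1.58 (adjusted p = 0.0012), and PBX2 was 1.90-fold lower (adjusted p = 2.4e-05). With Nutlin-3A in p53+/+ cells 0 of 6 rose and 3 fell, PBX3 most, from 2.23 to 0.90 RPKM (log2 change -0.96, adjusted p = 0.00018 by limma). HOTAIRM1, a noncoding transcript of the HOXA cluster, was the 1 tested of 3 other cluster transcripts, and it rose by 0.35 (adjusted p = 0.006 by limma).

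Genes flanking the clusters moved in both directions. Of 21 tested, 9 rose with Entinostat and 4 fell (median 0.07), and SKAP2, beside the HOXA cluster, rose from 6.18 to 10.96 RPKM (adjusted p = 4.4e-06 by limma). TTLL6, a tubulin-modifying enzyme on the same list, was at 0.20 RPKM without and 1.00 with Entinostat. Its mean of 0.597 RPKM passed the filter only through the Entinostat libraries. Its call, among the 9 above, therefore carries no weight. Of 36 tested homeobox genes outside the clusters 19 rose and 7 fell (median 0.20), where 31.7% and 30.1% of all tested genes did. Among them MKX fell from 2.74 to 0.46 RPKM (log2 change -1.55, adjusted p = 5.9e-07 by limma), and MSX2 (1.15, adjusted p = 0.00027) and SATB1 (0.95, adjusted p = 5.4e-05) rose.

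Among 23 Polycomb subunits, which keep HOX genes silent, 5 rose and 5 fell with Entinostat (median 0.05). PHF19 fell by 0.82 (adjusted p = 4.4e-06 by limma), PCGF2 by 0.59 (adjusted p = 1.1e-05) and PHC3 by 0.38 (adjusted p = 0.0066), and JARID2 rose by 0.37 (adjusted p = 6.5e-05). Nutlin-3A in p53+/+ cells lowered 8 of the 23 and raised 1, EZH1, where 9.5% of all tested genes fell and 7.89% rose. The catalytic subunit EZH2 fell from 28.8 to 16.03 RPKM (log2 change -0.83, adjusted p = 0.00023 by limma), PHF19 by 1.11 (adjusted p = 0.00046), CBX2 by 1.07 (adjusted p = 5.7e-05) and SUZ12 by 0.64 (adjusted p = 0.018). Of 12 MLL subunits and other activators 2 rose and 7 fell with Entinostat (median -0.18), KMT2B by 0.64 (adjusted p = 5.5e-06 by limma), WDR5 by 0.56 (adjusted p = 2.2e-06), DOT1L by 0.53 (adjusted p = 8.2e-05) and KDM6B by 0.52 (adjusted p = 3.3e-05).

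Of 8 tested ParaHox and retinoic acid genes, 2 rose and 5 fell with Entinostat (median -0.32). CDX2, the intestinal ParaHox factor that acts upstream of HOX genes, was 1.83-fold lower (6.64 to 3.62 RPKM, adjusted p = 3.7e-07 by limma). CYP26B1, which degrades retinoic acid, was 1.97-fold higher (adjusted p = 1.8e-06 by limma), and DHRS3, which limits its formation, was 2.01-fold lower (adjusted p = 0.00022). The retinoic acid receptor gene RARG fell by 0.60 (adjusted p = 6.8e-06 by limma). With Nutlin-3A in p53+/+ cells limma called 0 of these 8.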

How the data were processed

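The authors deposited 1 table of RPKM, read counts divided by gene length and by library depth, for 20612 genes in 16 libraries. The submitters' processing notes name Bowtie2, Partek and the build hg19. No source used here states versions, gene models or strand handling. Libraries were made with a stranded mRNA kit, per the labels' protocols. RefSeq tables of GRCh38.p14 gave names, gene order and promoter sequence only.

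Members and lists were chosen with earlier results of these data known. log2(RPKM + 0.5) of 12466 genes with a mean of at least 0.5 RPKM was fitted with limma 3.58.1 in R 4.3.3: 8 group means, intensity trend, 8 residual and 4.09 prior degrees of freedom, Benjamini-Hochberg adjustment over all 12466, called at an adjusted p under 0.05. This scale understates changes of low genes, so folds are ratios of mean RPKM. The fit was tested on simulated data. Overlap of libraries was counted over all genes only for the 8 with against the 8 without Entinostat. Every member called in a comparison and the 3 highest of each cluster were named with all values, except items not reported here. Of each other list at most 4 called genes were, by size of change.

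Same-numbered replicates deviated together across genes in all 28 pairs of groups (r 0.27 to 0.78, median 0.43). The main fit did not use this pairing, which entered only in the same-numbered pairs and in the replicate block. Alternatives were the pseudocount, the filter, scaling, the trend, a replicate block and each library left out.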

Additional observations from a re-analysis of the deposited data

Results flagged for a closer look

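HOXA13 differed between the lines in its response to Nutlin-3A. The difference of the log2 changes, p53-/- minus p53+/+, was 1.13 (SE 0.21, adjusted p = 0.0074 by limma over 12466 genes), and the call held under all alternatives run for it. In p53+/+ cells both Nutlin-3A replicates were below both DMSO replicates, and in p53-/- cells both were above. How many of all genes do so was not counted.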

How the results depend on the processing

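Of 1429 alternatives run on 117 calls of single members, 1256 kept the call, 173 lost it and 0 reversed its direction, and 62 calls were kept under all alternatives run. Under a replicate block the members called between the lines with DMSO went from 0 to 5, with 13.1% of all genes called. Those differing between lines in the Nutlin-3A response went from 1 to 2, with 17.1% of all genes. Those of Nutlin-3A added to Entinostat, a comparison chosen after seeing the data, went from 0 to 8, with 31.3% of all genes. The other counts of members stayed within 1.5 times. The DMSO comparison of the lines gave 2 with a pseudocount of 0.1 and 2 with no intensity trend, when 5.06% and 4.91% of all genes were called. With no filter on low values Nutlin-3A in p53+/+ cells called 1 in place of 2, and Nutlin-3A added to Entinostat 2 in place of 0. Of all genes 10.2% and 9.12% were called there. Leaving out single libraries gave 1 to 2 members for Nutlin-3A in p53+/+ cells, 4 to 14 for Entinostat in p53+/+ and 5 to 13 in p53-/- cells, 10 to 15 for Entinostat added to Nutlin-3A in p53+/+ and 3 to 10 in p53-/- cells, 5 to 10 for the Combination in p53-/- cells, 5 to 8 between the lines over all treatments and 0 to 3 for Nutlin-3A added to Entinostat. Fewer samples enter these fits, and most of them called fewer of all genes than the main fit. A lone library of a group is assumed to vary like the other groups. Median-of-ratios scaling shifted the median of all genes by at most 0.053. Depth limits the silent members, whose values rest on a few reads each.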

Other observations

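2 low members were picked out after their values were seen, and their means lie below the limit for testing. The antisense transcript HOXA-AS3 was at 0.0512 to 0.171 RPKM in the 8 p53+/+ libraries and at 0.0184 to 0.0563 in the 8 p53-/- libraries. HOXC4 was at 0.135 to 0.617 RPKM in the 8 libraries without Entinostat and at 0.09 to 0.35 in the 8 with it, and its span overlaps those of HOXC5 and HOXC6. With no filter on low values limma called HOXA-AS3, HOXC8, HOXD3, HOXD4 and HOXD9 between the lines over all treatments, when 34.9% of all genes were called, and HOXC4, HOXC8, HOXD3, HOXD9 and HOXD13 with Entinostat on average, when 45.4% were.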
